A study of Mus musculus with 82 samples.

Results

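Retinol and retinoic acid metabolism was represented by 10 genes of the 55401 in the count tables, namely the alcohol dehydrogenases Adh1 and Adh7, the retinol and retinal oxidoreductases Rdh10 and Dhrs3, the retinal dehydrogenases Aldh1a1 and Aldh1a3, the retinoic acid binding protein gene Crabp2, the retinoic acid hydroxylase gene Cyp26b1, and the retinoic acid target genes Rarb and Rarres2. The members were taken by gene symbol, and all 10 were found. The list was chosen from earlier results of these same libraries, so that the fold changes, calls and FDR values of the members in every comparison are a description and not independent evidence. The data were mRNA sequencing counts from primary aortic vascular smooth muscle cells (aVSMC) of C57BL/6 mice, cultured for up to 7 passages in a medium with serum, insulin, EGF, transferrin and hydrocortisone and then kept for 24 h without any supplement, a step that every group including the controls went through. The cells were then left as control or incubated with EGF (10 µg/L, ligand of the EGF receptor), AngII (10 nM, ligand of the AT1 receptor) or U46619 (1 µM, a stable thromboxane analog that activates the TP receptor). After 24 h there were 7 groups of 6 cultures, one culture from each of 6 mice, namely the control, each substance alone, EGF with AngII, EGF with U46619, and the 3 substances together (EGF+AngII+U46619). After 48 h there were 6 groups in 2 batches of 5 culture sets. The EGF/U46619 batch combined EGF with U46619 and the EGF/AngII batch EGF with AngII, each substance also alone and beside a control, so that control and EGF had n = 10 and the other groups n = 5.

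Retinol is oxidised to retinal by alcohol dehydrogenases and by membrane-bound short-chain dehydrogenases, a reversible step, and retinal is oxidised irreversibly to retinoic acid by the retinal dehydrogenases. Retinoic acid is carried by cellular binding proteins to nuclear receptors of the RAR and RXR families, which switch target genes on or off, and it is removed by the CYP26 hydroxylases. In vascular smooth muscle, retinoic acid is known as a regulator of proliferation and of contractile gene expression.

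The libraries held 16483529 to 20818809 counts at 24 h (42 libraries) and 19936925 to 33916114 counts at 48 h (40 libraries). Levels are given as FPM, fragments per 1e6 counted fragments with TMM scaling of the library totals, and levels are compared between genes only as FPKM, that is FPM per kilobase of exon. A gene was called changed, or a DEG, when edgeR's quasi-likelihood test and DESeq2 both gave an FDR below 0.05, at least 1 of the compared groups reached a mean of 5 FPM, and the gene passed the low-count filter at both time points. The filter kept 14653 genes at 24 h, among them 9 of the 10 members, and 15796 genes at 48 h, among them all 10. Crabp2 did not pass at 24 h. All 7075 genes of chromosomes 9, X, Y and MT were at 0 in every library, and no member lies there.

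In control cells after 24 h, Aldh1a1 had the highest level per length, with a mean of 68.7 ± 28.9 FPKM (SD, n = 6). Dhrs3 followed with 22.6 ± 7.55 FPKM, Rarres2 with 19.1 ± 16.3 FPKM and Adh1 with 18.6 ± 20.7 FPKM, and the ranges of these 3 genes over the mice overlapped. Cyp26b1 (4.38 ± 4.03 FPKM), Aldh1a3 (4.23 ± 7.18 FPKM) and Rdh10 (4.20 ± 2.15 FPKM) came next and differed from each other by far less than their spread. Adh7 stood at 1.03 ± 0.912 FPKM, while Crabp2 (0.103 ± 0.0847 FPKM) and Rarb (0.0688 ± 0.0820 FPKM) were close to the detection limit. At 48 h the order in control cells was the same for the 2 highest and the 3 lowest members, with Aldh1a1 at 107 ± 66.6 FPKM and Rarb at 0.0615 ± 0.0358 FPKM (n = 10).

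Members were called against control only in incubations that held U46619, which does not by itself show a difference between U46619 and EGF. With EGF alone Dhrs3, Cyp26b1 and Aldh1a1 had log2-fold changes of -0.75, -0.72 and -0.64 that were not called, beside -0.74, -0.81 and -0.86 with U46619. After 24 h, 4 of the 9 tested members were lower with U46619 (Adh1, Rarres2, Aldh1a1, Cyp26b1), and 5 were lower with EGF+U46619 and with EGF+AngII+U46619 (the same 4 and Dhrs3). No member was called higher in any comparison with control. Of all tested genes, 13.8% were called lower with U46619, 15.7% with EGF+U46619 and 15.6% with EGF+AngII+U46619. The median log2-fold change of the tested members was -0.74, -1.10 and -1.01 in these comparisons, beside -0.06, -0.05 and -0.04 over all tested genes. EGF, AngII and EGF+AngII called 0 members, while they called 0.0136%, 0% and 1.58% of all genes lower. All of these comparisons share the same 6 control libraries. The counts come from a refit of the deposited data, and the study itself reported genes regulated by EGF alone after 24 h.

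**Figure D1:**
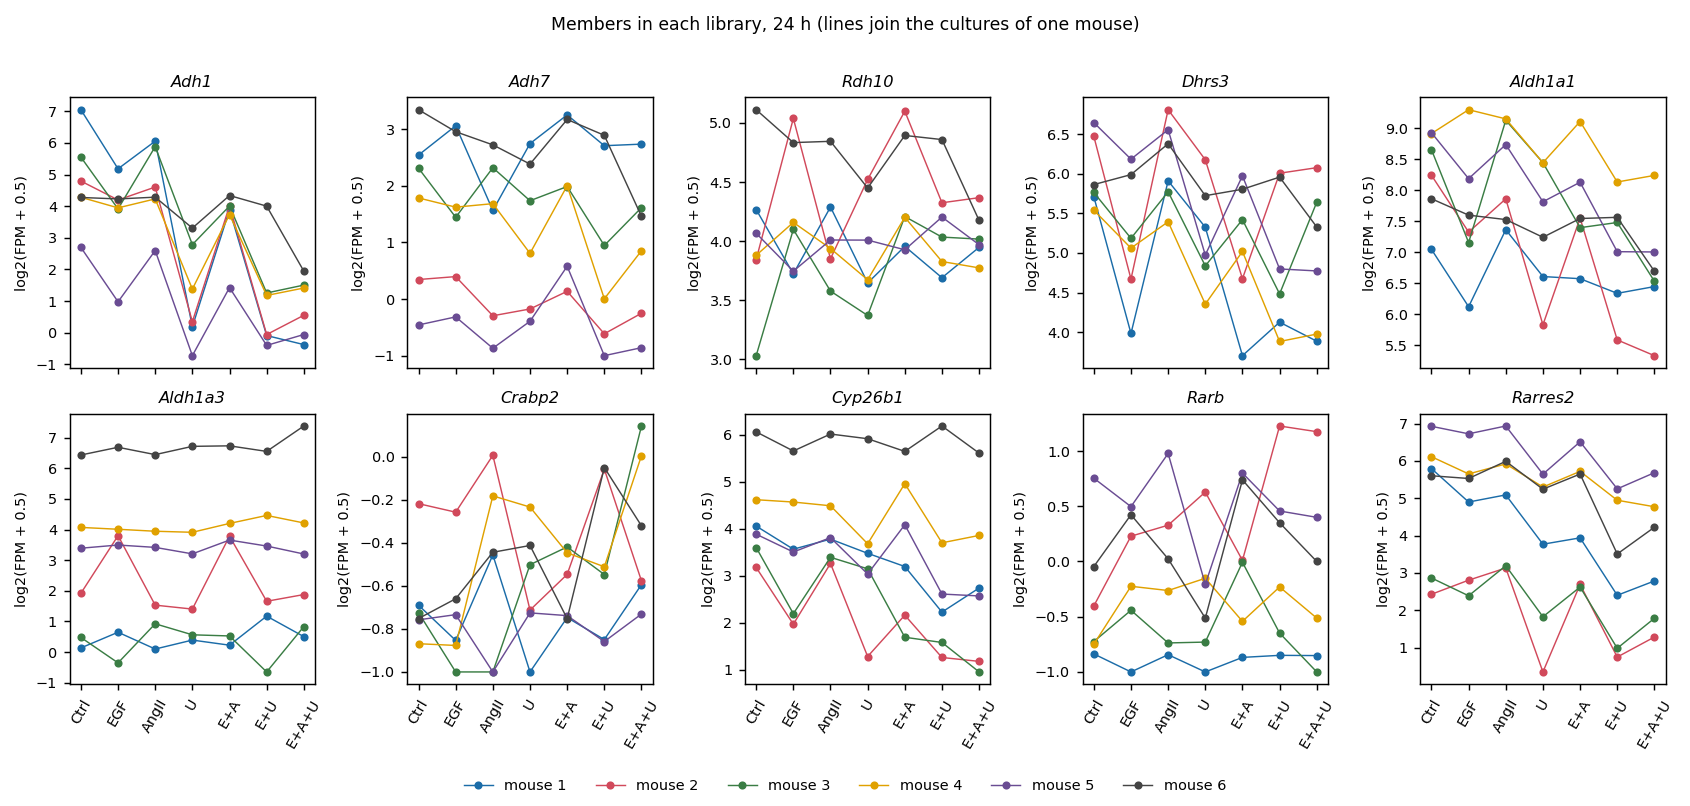
Level of each member in every library after 24 h, as log2(FPM + 0.5) on the vertical axis with its own range per gene, for control (Ctrl) and the incubations with E for EGF, A for AngII and U for U46619; lines join the 7 cultures of one mouse. Adh1 is lower wherever U46619 was present, whereas the lines of Aldh1a3 lie far apart between mice, with mouse 6 highest (86.0 FPM in its control).

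Adh1 (ENSMUSG00000074207, GRCm38 chromosome 3, 138260991 to 138290698, plus strand) encodes a cytosolic alcohol dehydrogenase that oxidises retinol among other alcohols. In control cells it was at 132, 27.2, 46.3, 18.9, 5.98 and 18.8 FPM in mice 1 to 6. With U46619 the same mice gave 0.638, 0.771, 6.39, 2.1, 0.105 and 9.39 FPM, so that it was lower in 6 of 6 mice, although the highest U46619 value lay above the lowest control value. With EGF+U46619 the values were 0.439, 0.460, 1.89, 1.76, 0.257 and 15.5 FPM, and mouse 6 stood apart near its own control. With EGF+AngII+U46619 the values ran from 0.270 to 3.35 FPM with a median of 1.56 FPM, and none reached the lowest control value. The log2-fold changes were -3.96 ± 0.65 (SE) with U46619, -4.04 ± 0.67 with EGF+U46619 and -4.65 ± 0.69 with EGF+AngII+U46619, or 15.5-fold, 16.5-fold and 25.1-fold lower. With EGF alone Adh1 was at 35.8, 17.8, 14.6, 14.9, 1.47 and 18.2 FPM, below its own control in 6 of 6 mice, but the difference of -1.27 ± 0.56 was not called (edgeR FDR 0.221). With AngII it was at 5.55 to 65.98 FPM with a median of 21.4 FPM, largely overlapping the control range of 5.98 to 132 FPM, and was not called (-0.32 ± 0.55).

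Adh7 (ENSMUSG00000055301, chromosome 3, 138217760 to 138233382, plus strand) encodes another alcohol dehydrogenase with high activity toward retinol, and its gene ends 27608 bp before the outermost start of the Adh1 gene. Its levels at 24 h were low in all groups, from 0.228 to 9.66 FPM in control cells and from 0 to 6.92 FPM with EGF+U46619. Mice 2 and 5 were lowest in every group and mouse 1 or mouse 6 highest, while the order otherwise changed between groups. The difference with EGF+U46619 was -1.06 ± 0.39 with an FDR of 0.0276 in edgeR and 0.0256 in DESeq2. It was not called because no group mean reached 5 FPM, the highest being 3.90 FPM.

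Rdh10 (ENSMUSG00000025921, chromosome 1, 16105774 to 16133734, plus strand) encodes the retinol dehydrogenase that makes most retinal in the embryo. In control cells it was at 18.7, 13.9, 7.67, 14.2, 16.3 and 34.1 FPM, and with U46619 at 12.01, 22.5, 9.84, 12.2, 15.6 and 21.3 FPM. The groups overlapped fully, and the difference was -0.15 ± 0.19 (edgeR FDR 0.586). With EGF+U46619 it was 0.08 ± 0.19 (edgeR FDR 0.780). Dhrs3 (ENSMUSG00000066026, chromosome 4, 144892827 to 144928209, plus strand) encodes the enzyme that reduces retinal back to retinol and is itself induced by retinoic acid. Dhrs3 was at 51.9, 88.3, 53.8, 46.0, 99.6 and 57.7 FPM in control cells and at 39.6, 71.9, 28.1, 19.9, 30.9 and 52.3 FPM with U46619. Values were lower in 6 of 6 mice, and the difference of -0.74 ± 0.30 was not called (edgeR FDR 0.0585). With EGF+U46619 it was at 17.0, 63.8, 21.9, 14.2, 27.3 and 61.7 FPM, lower in 5 of 6 mice with mouse 6 again close to its control, and fell by 1.10 ± 0.31 on the log2 scale. With EGF+AngII+U46619 it fell by 1.01 ± 0.31 and was lower in 6 of 6 mice, a call that was lost without mouse 1, 4 or 5 (-0.85, -0.89 and -0.83).

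**Figure D2:**
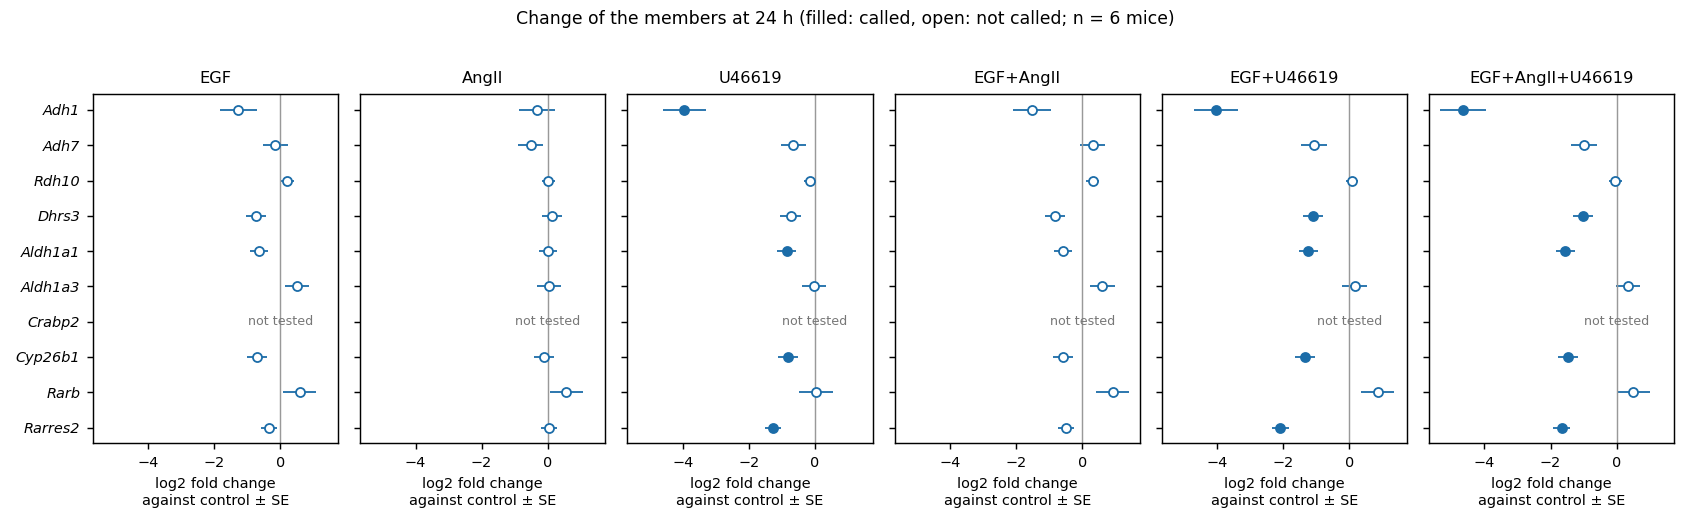
Log2-fold change against control after 24 h (horizontal axis, bars ± SE, n = 6 mice) for each member in the 6 incubations; filled points were called and open points were not. The 4 filled points with U46619 alone and the 5 with EGF+U46619 all lie left of 0, and Adh1 lies farthest left (-3.96 and -4.04).

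Aldh1a1 (ENSMUSG00000053279, chromosome 19, 20492715 to 20643465, plus strand) encodes a cytosolic retinal dehydrogenase. It was at 131, 302, 402, 482, 486 and 232 FPM in control cells, at 96.9, 56.3, 348, 347, 224 and 150.7 FPM with U46619, and at 80.2, 47.4, 177.8, 280, 128 and 188.4 FPM with EGF+U46619. It was lower in 6 of 6 mice in both incubations while the ranges overlapped. The log2-fold changes were -0.86 ± 0.28 and -1.24 ± 0.28, or 1.81-fold and 2.37-fold lower, and with EGF+AngII+U46619 -1.55 ± 0.29. The call with U46619 was lost without mouse 2 (-0.56) and without mouse 5 (-0.78).

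Aldh1a3 (ENSMUSG00000015134, chromosome 7, 66390890 to 66427517, minus strand), another retinal dehydrogenase gene and known to be expressed in ventral retina and several epithelia, behaved differently. In control cells it was at 0.599, 3.28, 0.893, 16.3, 10.0 and 86.0 FPM, a 144-fold range over the mice, and with U46619 at 0.812, 2.15, 0.979, 14.5, 8.74 and 105 FPM. Mouse 6 was highest and mice 1 and 3 lowest in every incubation, and mouse 2 was at 13.4 FPM with EGF and 13.3 FPM with EGF+AngII. Of the spread of log2(FPM + 0.5) over the 42 libraries, 95.1% lay between mice and 0.627% between incubations. The difference with U46619 was -0.02 ± 0.37, and it was not called in any comparison at 24 h. In mouse 6, where Aldh1a3 was highest, the control culture also had the highest summed endothelial markers (1162 FPM, of which Cdh5 was at 0) and adipocyte markers (2382 FPM), and the part of such cells in the level was not tested. For Adh1 the corresponding shares were 20.6% between mice and 63.0% between incubations, and for the other members tested at 24 h the mouse share ran from 35.6% (Dhrs3) to 85.0% (Adh7).

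Crabp2 (ENSMUSG00000004885, chromosome 3, 87948666 to 87953376, plus strand), whose protein carries retinoic acid to the nucleus, was at most 0.603 FPM in any library at 24 h and was not tested. Cyp26b1 (ENSMUSG00000063415, chromosome 6, 84571414 to 84593908, minus strand) encodes a hydroxylase that degrades retinoic acid. It was at 16.1, 8.52, 11.6, 24.0, 14.2 and 66.2 FPM in control cells, at 10.6, 1.93, 8.34, 12.3, 7.69 and 59.8 FPM with U46619, and at 4.17, 1.89, 2.49, 12.5, 5.60 and 72.2 FPM with EGF+U46619. It was lower in 6 of 6 mice with U46619 and in 5 of 6 with EGF+U46619, where mouse 6 stayed near its control. The log2-fold changes were -0.81 ± 0.30 with U46619, -1.34 ± 0.30 with EGF+U46619 and -1.47 ± 0.30 with EGF+AngII+U46619. The call with U46619 alone was lost without mouse 1, 2, 4 or 5, with values of -0.85, -0.59, -0.77 and -0.78.

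Rarres2 (ENSMUSG00000009281, chromosome 6, 48569696 to 48572789, minus strand) encodes chemerin, a secreted chemoattractant first described as a retinoid-responsive gene product. It was at 54.9, 4.88, 6.77, 68.6, 121 and 48.0 FPM in control cells. With U46619 the same mice gave 13.1, 0.771, 3.04, 38.8, 49.5 and 37.3 FPM, and with EGF+U46619 4.77, 1.18, 1.47, 30.3, 37.5 and 10.9 FPM. It was lower in 6 of 6 mice with both, although the mice differed more than the incubations did, with 79.0% of the spread of log2(FPM + 0.5) between mice and 17.1% between incubations. The log2-fold changes were -1.27 ± 0.25 with U46619 (2.42-fold lower), -2.09 ± 0.26 with EGF+U46619 (4.27-fold lower) and -1.66 ± 0.26 with EGF+AngII+U46619. Rarres2 shares 892 of its 2656 exon bases with Lrrc61 on the opposite strand, and the counting options given in the methods name no strand setting, so that reads of the 2 genes may not be told apart there.

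Rarb (ENSMUSG00000017491, chromosome 14, 16430839 to 16819156, minus strand) encodes retinoic acid receptor beta and is a textbook target of retinoic acid. It was at 0.0599, 0.257, 0.105, 0.0951, 1.19 and 0.469 FPM in control cells and at 0, 1.05, 0.103, 0.400, 0.366 and 0.201 FPM with U46619. At this depth no difference was detectable (0.03 ± 0.52), and the highest level in any library at 24 h was 1.84 FPM. Rarb shares 1793 of its 5265 exon bases with Top2b on the opposite strand.

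Promoters are shown for Rarb, because it carries the known retinoic acid response element, and for Adh1 and Cyp26b1, the called members with a single promoter in the reference table. Each line gives the 250 bases before a RefSeq start site, from the RefSeq promoter table of GRCm38.p6, which held 6 of the 10 members (Aldh1a3, Crabp2, Rarres2 and Rdh10 were not in it). Capitals mark matches to DR5, a direct repeat spaced by 5 bases and searched as GGTTCA, any 5 bases and AGTTCA, or to the half-sites GGTTCA and AGTTCA and the related AGGTCA, all on both strands. The start site used lies 16594 bases inside the Adh1 gene, 243680 bases inside the Rarb gene and 98 bases inside the Cyp26b1 gene, counted from the outermost start of the GENCODE gene whose positions are given above.
Rarb, chr14:16575477-16575726, minus strand: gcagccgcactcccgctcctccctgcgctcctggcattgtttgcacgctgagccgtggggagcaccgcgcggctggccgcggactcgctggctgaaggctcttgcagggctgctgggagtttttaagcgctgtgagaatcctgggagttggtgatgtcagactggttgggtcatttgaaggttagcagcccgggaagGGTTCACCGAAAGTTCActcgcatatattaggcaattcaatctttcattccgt
Adh1, chr3:138277335-138277584, plus strand: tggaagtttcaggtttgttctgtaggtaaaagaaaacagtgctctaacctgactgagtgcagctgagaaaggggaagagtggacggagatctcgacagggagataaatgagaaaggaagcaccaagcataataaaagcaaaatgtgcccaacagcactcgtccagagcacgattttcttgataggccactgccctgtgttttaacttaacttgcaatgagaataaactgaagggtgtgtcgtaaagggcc
Cyp26b1, chr6:84593811-84594060, minus strand: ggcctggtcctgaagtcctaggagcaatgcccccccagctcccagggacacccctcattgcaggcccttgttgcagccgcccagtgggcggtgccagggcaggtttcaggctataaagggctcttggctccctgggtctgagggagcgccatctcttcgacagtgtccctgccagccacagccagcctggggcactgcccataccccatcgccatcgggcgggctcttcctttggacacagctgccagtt
In the Rarb promoter the 17 bases of DR5 lay 53 to 37 bases before the start. The searched DR5 string, with any 5 bases in the middle and on either strand, was found in 2 of 32851 promoters of that length (0.00609%). It holds the half-sites of the Rarb element itself, so that a match in Rarb was fixed in advance. Direct repeats of other half-sites were not searched, and the share does not count them. The GGTTCA and AGTTCA matches in Rarb are part of DR5. GGTTCA was found in 8.85%, AGGTCA in 14.0% and AGTTCA in 11.8% of all promoters. None of the 3 was found in the windows of Adh1, Cyp26b1, Aldh1a1 and Dhrs3, and AGTTCA was found once in that of Adh7, on the opposite strand, 221 to 216 bases before the start. A match is a string of letters and not a bound site, and Rarb itself was close to the detection limit in these cells.

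EGF and U46619 were also set against each other. With EGF+U46619 against EGF at 24 h, Adh1 (-2.77 ± 0.64, edgeR FDR 0.00319) and Rarres2 (-1.75 ± 0.26, edgeR FDR 4.79e-05) were called lower, which makes 2 of 9 members beside 6.09% of all genes. With U46619 against EGF the same 2 genes were called, Adh1 with -2.69 ± 0.62 and Rarres2 with -0.93 ± 0.25 (edgeR FDR 0.00388 and 0.0124), beside 5.08% of all genes. The Rarres2 call in the latter was lost without mouse 2 (-0.70) or mouse 5 (-0.93). Adding EGF to U46619 called 0 members and 0% of all genes. Only 1 member had an unadjusted p below 0.05 there, in edgeR and in DESeq2, namely Rarres2 with -0.82 ± 0.26 (edgeR FDR 1.00), beside 2.51% of all genes in both tools. The interaction of EGF and U46619 likewise called 0 members and 0% of all genes, with 0 at an unadjusted p below 0.05 in either tool, and was largest for Adh1 (1.19 ± 0.84).

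With EGF alone, 4 of the 9 members had an unadjusted p below 0.05 in each tool, all with lower values (Adh1 -1.27, Dhrs3 -0.75, Cyp26b1 -0.72, Aldh1a1 -0.64), beside 17.4% of all genes in both tools, and neither tool gave any of them an FDR below 0.05. With EGF+AngII there were 3 such members in edgeR and 4 in DESeq2, 3 of them in both beside 24.3% of all genes, and without mouse 6 Adh1 was called (-1.64). With AngII there were 0 in either tool, and the log2-fold changes of the members above 1 FPM ran from -0.51 (Adh7) to 0.12 (Dhrs3). AngII added to EGF, and AngII added to EGF+U46619, called 0 members and 0% of all genes, with 0 members at an unadjusted p below 0.05 in either tool.

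Some markers of smooth muscle cells, fibroblasts, adipocytes and macrophages moved in the same comparisons. At 24 h the summed level of 8 smooth muscle markers had a median of 2628 FPM in control (range 1256 to 5380), 11976 FPM with U46619 (4426 to 15184) and 9694 FPM with EGF+U46619 (1719 to 13055), higher in 6 of 6 mice in both. Acta2, smooth muscle actin, carried most of this sum and was called higher in both (2.05 and 1.62). Lmod1 was called higher with U46619 (0.84) but not with EGF+U46619 (0.45). Smtn (0.22 and 0.25), Myh11 (0.29 and -0.28), Des (-0.28 and -0.71) and Myocd (-0.37 and 0.23) were called in neither. Tagln and Cnn1 lie on chromosome 9, where every gene was at 0 in every library, so that their zeros cannot be read as absence from these cells. The summed level of 8 fibroblast markers was at a median of 969 FPM in control (704 to 3558), 510 FPM with U46619 (238 to 2263) and 434 FPM with EGF+U46619 (233 to 1311), lower in 6 of 6 and 5 of 6 mice. Of these 8 genes, 7 were called lower with U46619 and 7 with EGF+U46619, including Pdgfra and Dcn, beside 13.8% and 15.7% of all genes. Of 5 adipocyte markers, 1 and 4 were called lower, and 0 of the 4 tested endothelial markers in either. The adipocyte sum with EGF+U46619 was lower in 5 of 6 mice. In mouse 6 it was at 2382 FPM in control and 221 FPM with EGF+U46619, while the other controls were at 18.4 to 128 FPM. Of the 3 tested macrophage markers, 1 was called lower (Lyz2) and 1 higher (Csf1r) in both. The part of other cells in the members' differences was not tested, and in these bulk cultures fewer cells of a type and less RNA per cell cannot be told apart.

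**Figure D3:**
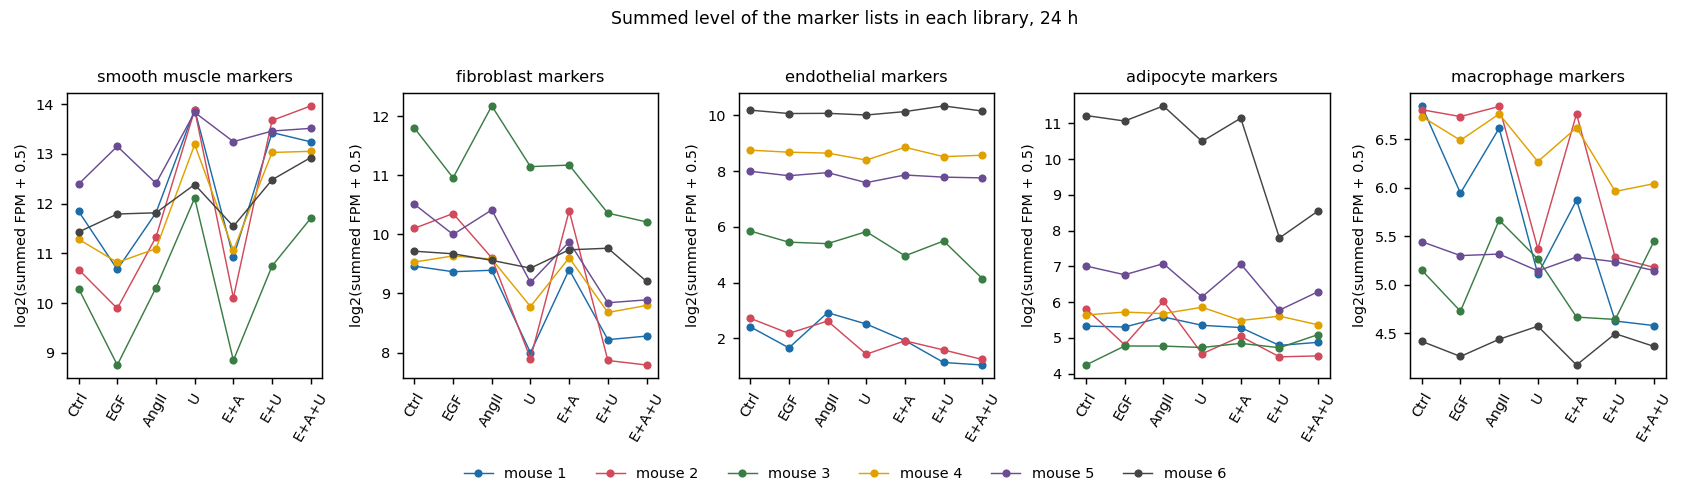
Summed level of each marker list in every library after 24 h, as log2(summed FPM + 0.5) on the vertical axis with its own range per list, groups labelled as in the plot of members by library; lines join the cultures of one mouse. The smooth muscle sum is higher and the fibroblast sum lower in the 3 groups with U46619, and mouse 6 has the highest endothelial and adipocyte sums (1162 and 2382 FPM in control).

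Other genes of the pathway were taken from a list of 55, of which 28 were tested at 24 h. With U46619, 3 were called higher and 8 lower, with EGF+U46619 3 and 9, with EGF+AngII+U46619 3 and 10, and with EGF+AngII 0 and 2. Of all tested genes, 12.8%, 16.1%, 17.6% and 1.53% were called higher in these comparisons, beside the shares called lower given above. EGF and AngII called 0, with 7 and 0 at an unadjusted p below 0.05 in each tool and, for EGF, 2 at an FDR below 0.05 in DESeq2. The median log2-fold change of the 28 was -0.34 with U46619 and -0.29 with EGF+U46619. Among the oxidoreductases, Rdh5, which makes 11-cis-retinal in the eye, was lower with EGF+U46619 (-1.50 ± 0.30), as were Rdh14 (-0.65 ± 0.14) and Dhrs7 (-0.64 ± 0.14), whereas Rdh13 was higher (0.74 ± 0.16). Aldh1a7, a close relative of Aldh1a1 located next to it on chromosome 19, was lower (-1.28 ± 0.36), and 1.01% of the 75-base windows of Aldh1a1 transcripts also occur in Aldh1a7. Retsat, retinol saturase, was lower (-0.90 ± 0.17), and so was Dgat1 (-0.76 ± 0.20), an acyltransferase that can esterify retinol, while Scarb1, a receptor that takes up lipids and carotenoids, was higher (0.96 ± 0.20). Of the receptor genes, Rxra (-0.76 ± 0.12) and Rarg (-0.61 ± 0.16) were called lower with EGF+U46619, and Rarg also with EGF+AngII (-0.61 ± 0.16). Rara (-0.24) and Rxrb (-0.28) were not called and Rxrg was not tested. Of the other targets, Rarres1 was lower (-0.78 ± 0.26), whereas Tgm2, the retinoic acid-inducible tissue transglutaminase, was higher with U46619 (1.78 ± 0.35) and with EGF+U46619 (1.54 ± 0.35). Fabp5, which can carry retinoic acid, was called only at 48 h with EGF+U46619 (-1.33 ± 0.40).

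For each member tested at 24 h, the gene most like it was sought among 10155 genes with a mean of at least 5 FPM, by Pearson's r of log2(FPM + 0.5) after subtraction of the mouse mean over the 42 libraries. These r describe libraries that share mice, incubations and controls. Adh1 was most like Itm2b (r = 0.975), whose medians were 1544 FPM in control, 729 FPM with U46619 and 595 FPM with EGF+U46619. Cyp26b1 was most like Daam2 (0.929), Rarres2 like Adhfe1 (0.928), Aldh1a1 like Pqlc3 (0.905) and Dhrs3 like C1rl (0.891). The nearest genes of Aldh1a3 (Id1, 0.757), Adh7 (Ifngr1, 0.664), Rdh10 (Tnfaip8, 0.624) and Rarb (S1pr1, 0.589) were less alike. Between members, r was highest for Adh1 with Rarres2 (0.875) and Aldh1a1 with Cyp26b1 (0.858).

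At 48 h the labels give 5 mouse numbers for the 10 culture sets, while the study's methods describe a different mouse for each replicate. The statistical model used the mouse number, as at 24 h, and held no batch term. It set the U46619 groups, present only in the EGF/U46619 batch, against the controls of both batches, so that differences between the batches could enter these estimates. Results are therefore also given with the culture set as the block. A library also stood apart. The library labelled control of culture set 4 in the EGF/AngII batch deviated against the other 3 libraries of its set (mean r = -0.364, lowest among all other libraries at 48 h 0.447) and with those of set 2 of that batch (mean r = 0.894). Rarres2 was at 2.16 FPM in it and at 150.7 to 166.1 FPM in the other 3 libraries of set 4, but at 1.89 to 2.36 FPM in the 3 incubated libraries of set 2. Likewise Adh7 was at 36.1 FPM against 10.2 to 13.5 FPM in its own set and 31.3 to 44.1 FPM in set 2, and Aldh1a3 at 5.67 FPM against 39.5 to 55.0 FPM and 5.00 to 6.09 FPM. The control of set 2 in the same batch deviated with its own set (mean r = 0.755), but was at 103 FPM of Dhrs3 against 33.4 to 43.0 FPM in the incubated libraries of that set, at 36.1 against 65.0 to 76.6 FPM of Rdh10, and at 1233 against 767 to 836 FPM of Aldh1a1, with a summed level of the macrophage markers of 245 FPM against 41.8 to 42.5 FPM. All comparisons with control at 48 h include both libraries. Counts of called members are given with and without the library labelled control of set 4, and also for the EGF/U46619 batch alone, which holds neither library.

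**Figure D4:**
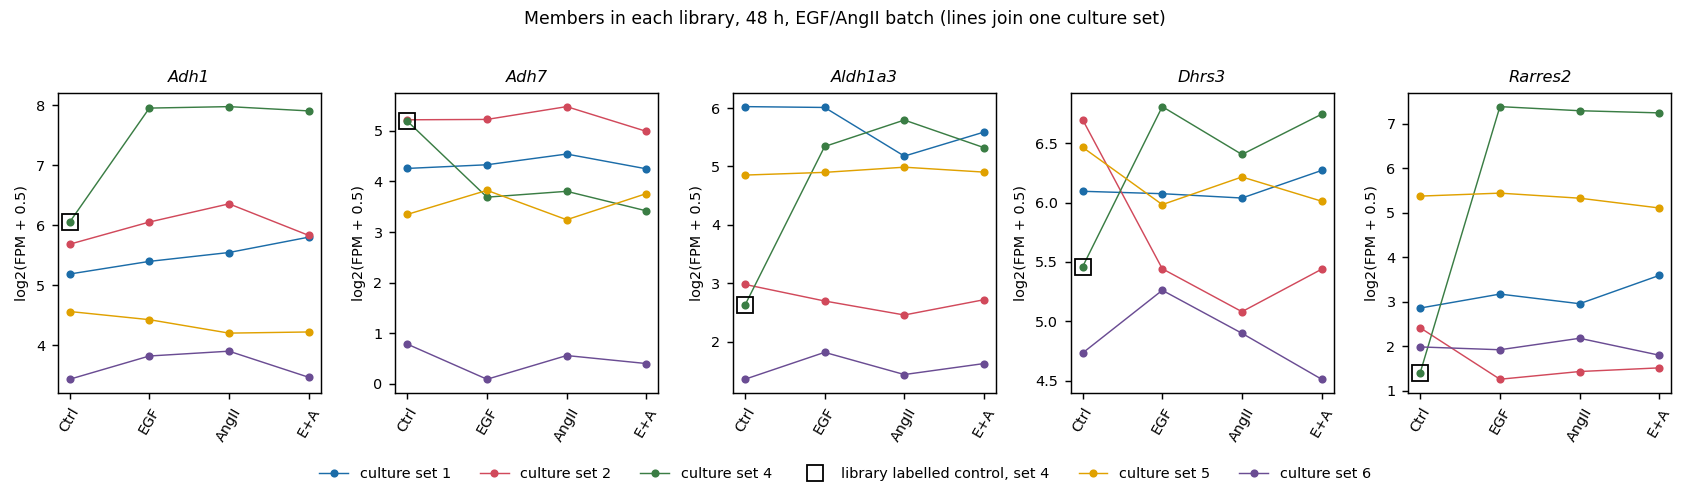
Level of 5 members in every library of the EGF/AngII batch after 48 h, as log2(FPM + 0.5) on the vertical axis with its own range per gene; lines join the 4 libraries of one culture set, and the square marks the library labelled control of set 4. For Rarres2 the marked point is at 2.16 FPM, whereas the other 3 libraries of that set are at 150.7 FPM or above.

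After 48 h with U46619 the model with the mouse number called 1 member lower, Adh1, beside 1.42% of all genes, and with EGF+U46619 it called 3 (Adh1, Aldh1a1 and Cyp26b1) beside 2.77%. With the culture set as the block, 6 members were called with U46619 (Adh1, Adh7, Aldh1a1, Aldh1a3, Cyp26b1 and Rarres2) beside 4.48% of all genes, and 5 with EGF+U46619 (the same without Adh7) beside 6.73%. Without the library labelled control of set 4 and with the culture set as the block, 6 members were called with U46619 beside 7.17%, and 6 with EGF+U46619 beside 9.5%. EGF, AngII and EGF+AngII called 0 members without this library with either block. With all libraries and the mouse number they called 0% of all genes lower. The share without this library is not given here, so these counts are not a result about the members. The EGF/U46619 batch alone gave 4 members with U46619 beside 4.9% and 5 with EGF+U46619 beside 7.37%, or 7 beside 9.82% and 6 beside 12% with the culture set as the block. With the mouse number, leaving out culture set 2, 3 or 4 of the EGF/U46619 batch removed the Adh1 call with U46619 (-2.49, -2.70 and -2.74), and leaving out set 2 of the EGF/AngII batch brought in Aldh1a3 and Aldh1a1 (3 members called). All called members were lower. In the model with the mouse number, which holds no batch term, the median log2-fold change of the 10 members was -1.15 with U46619 and -1.46 with EGF+U46619, beside -0.03 over all genes in both.

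**Figure D5:**
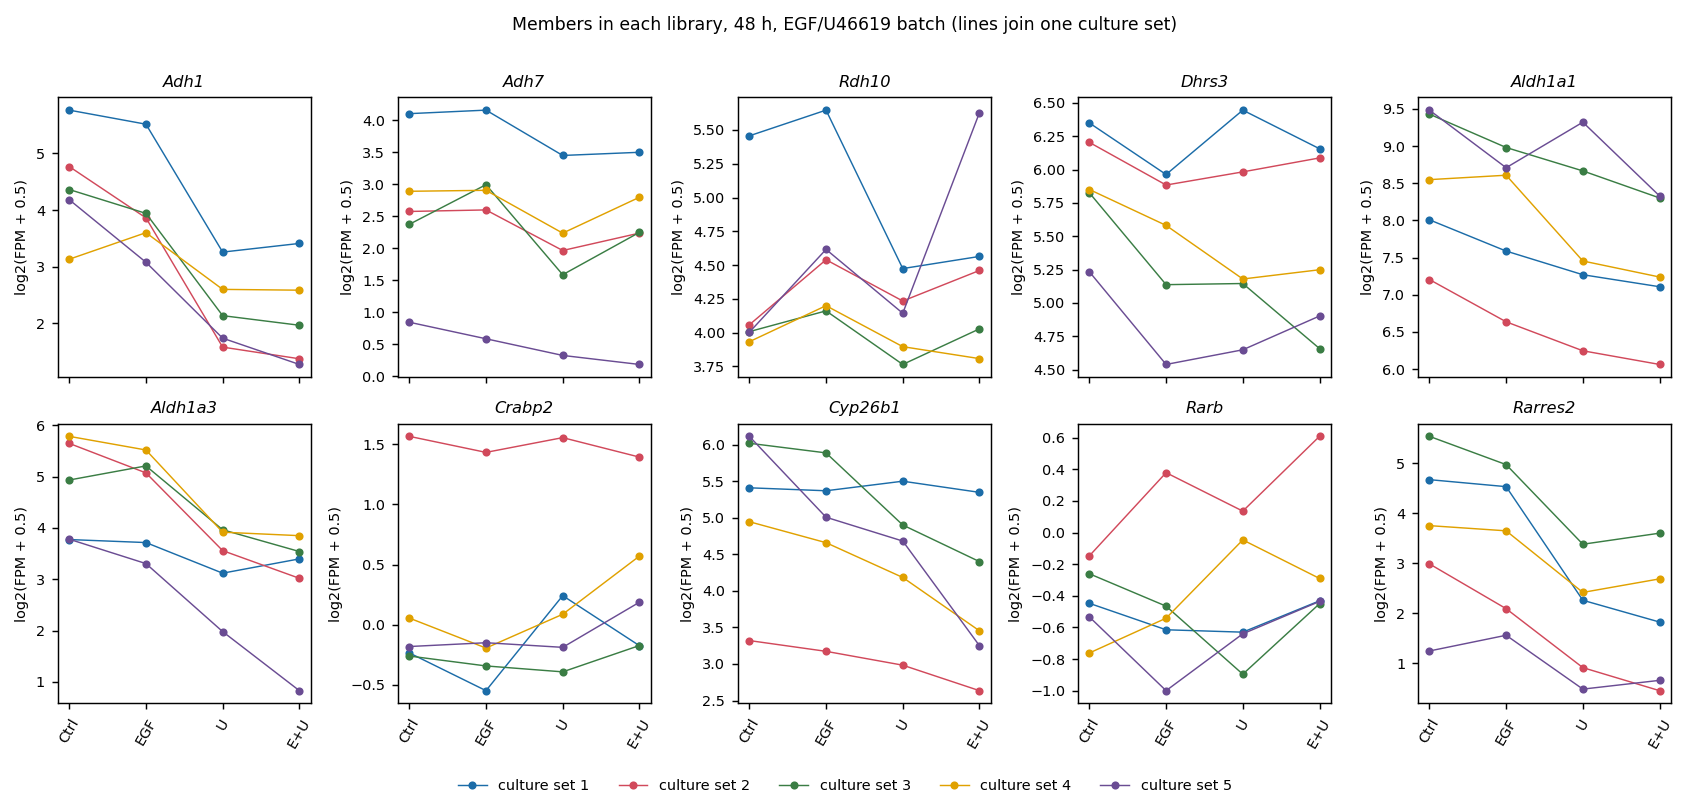
Level of each member in every library of the EGF/U46619 batch after 48 h, as log2(FPM + 0.5) on the vertical axis with its own range per gene; lines join the 4 libraries of one culture set. Adh1, Adh7, Aldh1a1, Aldh1a3 and Rarres2 are below their own control with U46619 in 5 of 5 sets.

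Adh1 in the 5 sets of the EGF/U46619 batch was at 53.9, 26.8, 20.1, 8.26 and 17.7 FPM in control, at 9.06, 2.49, 3.89, 5.56 and 2.83 FPM with U46619 and at 10.1, 2.09, 3.40, 5.50 and 1.91 FPM with EGF+U46619. It was lower in 5 of 5 sets in both, with an overlap of the groups through the low control of set 4. The log2-fold change with U46619 was -2.62 ± 0.67 with the mouse number (edgeR FDR 0.0210) and -2.14 ± 0.32 with the culture set. Adh7 was at 16.7, 5.46, 4.68, 6.91 and 1.30 FPM in control and at 10.4, 3.41, 2.51, 4.21 and 0.755 FPM with U46619. All 5 sets were lower than their control while the ranges overlapped, and the difference was -1.84 ± 0.65 with the mouse number (not called, edgeR FDR 0.0911) and -0.89 ± 0.23 with the culture set (called, edgeR FDR 0.0107).

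Aldh1a3, which was not called at 24 h, was at 13.2, 49.6, 30.1, 54.6 and 13.2 FPM in control, at 8.18, 11.3, 15.1, 14.6 and 3.44 FPM with U46619 and at 10.0, 7.60, 11.1, 13.9 and 1.28 FPM with EGF+U46619. Every set was lower with U46619 than its own control, and sets 2, 3 and 4, whose controls were highest, were at 11.3 to 15.1 FPM. The log2-fold change with U46619 was -1.55 ± 0.61 with the mouse number (not called, edgeR FDR 0.134), -1.45 ± 0.34 with the culture set (called, edgeR FDR 0.00481) and -1.54 ± 0.22 with the culture set and without the library labelled control of set 4 (edgeR FDR 9.53e-06). The cultures of both time points came from different mice and were normalised separately, and the difference between the time points was not tested. Aldh1a1 was at 257, 147, 690, 374 and 716 FPM in control and at 153.8, 75.4, 406, 174.9 and 640 FPM with U46619, lower in 5 of 5 sets (-1.0 ± 0.33 with the mouse number, not called, and -0.71 ± 0.14 with the culture set, called). With EGF+U46619 it was at 137, 66.3, 315, 150.6 and 321 FPM (-1.45 ± 0.34 with the mouse number, called with either block).

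Rarres2 was at 25.0, 7.43, 46.0, 12.97 and 1.87 FPM in control, at 4.29, 1.38, 9.91, 4.84 and 0.896 FPM with U46619 and at 3.04, 0.867, 11.6, 5.94 and 1.08 FPM with EGF+U46619. Both incubations were lower in 5 of 5 sets. The difference with U46619 was -2.16 ± 0.98 with the mouse number (not called, edgeR FDR 0.191), -1.88 ± 0.53 with the culture set (called, edgeR FDR 0.0168), and -2.01 ± 0.24 with the culture set and without the library labelled control of set 4 (edgeR FDR 4.84e-07). Cyp26b1 was at 41.98, 9.49, 64.3, 30.3 and 68.7 FPM in control. With U46619 it was at 44.7, 7.41, 29.4, 17.7 and 25.1 FPM, lower in 4 of 5 sets, and called with the culture set but not with the mouse number. With EGF+U46619 it was at 40.2, 5.71, 20.6, 10.5 and 9.01 FPM, lower in 5 of 5 sets (-1.87 ± 0.51 with the mouse number, called with either block). The mean difference within the sets in log2(FPM + 0.5) was -1.34 with EGF+U46619. The EGF+U46619 call was lost with the mouse number without set 3 (-1.89) or set 5 (-1.66) of the EGF/U46619 batch. Dhrs3 (37.1 to 81.0 FPM in control, 24.6 to 86.7 FPM with U46619), Rdh10 (14.8 to 43.4 FPM, 13.1 to 21.7 FPM), Crabp2 (0.335 to 2.46 FPM, 0.262 to 2.44 FPM) and Rarb (0.0898 to 0.403 FPM, 0.0374 to 0.598 FPM) overlapped between the groups and were called with neither block over both batches.

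Set against EGF at 48 h, EGF+U46619 and U46619 each called Adh1 alone with the mouse number (-2.94 ± 0.69 and -2.88 ± 0.69), beside 2.02% and 1.2% of all genes. With the culture set as the block the counts were 5 and 4 members beside 5.64% and 4.2%, and without the library labelled control of set 4 they were 6 and 4 beside 7.77% and 6.29%. The U46619 call against EGF was lost with the mouse number without set 2 or 3 of the EGF/U46619 batch. EGF, AngII and EGF+AngII against control, EGF+U46619 against U46619, EGF+AngII against EGF and the interaction called 0 members and 0% of all genes at 48 h with the mouse number. Only AngII against control had any member at an unadjusted p below 0.05, namely 1 in each tool beside 1.61% of all genes in both, and neither tool gave a member an FDR below 0.05 in these comparisons. In the EGF/U46619 batch the fibroblast marker sum had a median of 1735 FPM in control, 1163 FPM with U46619 and 1077 FPM with EGF+U46619, lower in 5 of 5 sets in both, while the smooth muscle sum (3865, 3558 and 3196 FPM) was lower in 3 and 5 of 5 sets. The part of these cells in the members' differences was not tested.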

How the data were processed

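RNA was enriched for polyA and sequenced from paired ends. The authors aligned the reads with HISAT2 2.1.0 to mm10 and counted fragments per gene with featureCounts on Ensembl annotation, multi-mapping reads included. The deposited files hold these counts, not normalized, for 42 libraries at 24 h and 40 at 48 h. The members and gene lists were chosen with earlier results of these data known.

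Each time point was fitted in edgeR 4.0.16 (TMM, quasi-likelihood test) and DESeq2 1.42.0 (Wald test) under R 4.3.3, with mouse and treatment as terms and all groups in 1 fit. P-values were adjusted by Benjamini-Hochberg over all genes tested, and the SE is the log2-fold change divided by the square root of F. FPM and log2(FPM + 0.5) came from the TMM-scaled counts. Named were all members, the receptors, up to 12 called pathway genes with the largest change with EGF+U46619 at 24 h, and for each member the gene most like it. Pathway genes at 0 in every library, also part of that rule, are not reported here. Positions and exon lengths were taken from GENCODE M21 (GRCm38).

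Libraries of one mouse deviated together at 24 h (mean r within a mouse at least 0.620 for every library, 42 of 42 most like their own mouse), and those of one culture set at 48 h (39 of 40). No 2 libraries held identical counts. On simulated counts for U46619 against control with 200 changed genes, 48 of 66 genes with 4-fold, 38 of 67 with 2-fold and 23 of 67 with 1.5-fold changes were recovered among the 14653 genes of 24 h, and 53 of 66, 30 of 67 and 15 of 67 among the 15796 genes of 48 h, with none of the wrong sign. Alternatives were other size factors, 1 tool alone, no low-count filter, no FPM minimum, only the compared groups, no block, culture set as block, batch as a term, each batch alone and each replicate left out. Leaving out the library labelled control of set 4 was chosen after seeing the data.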

Additional observations from a re-analysis of the deposited data

Results flagged for a closer look

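In 6 of 130 groups of 5, 6 or 10 libraries (10 members in 13 groups) a member had a library far from the others, and chance gives about 1 in 20. Adh1 in replicate 5 was lowest with EGF at 24 h, at 1.47 FPM against 14.6 to 35.8 FPM in the other 5 mice, and with EGF+AngII at 2.19 FPM against 12.8 to 19.7 FPM. Replicate 5 also had the lowest control value of Adh1 (5.98 FPM). Aldh1a3 with EGF+U46619 at 48 h was lowest in replicate 5 of the EGF/U46619 batch, at 1.28 FPM against 7.60 to 13.9 FPM. Crabp2 in control cells was highest in replicate 2 at 24 h (0.359 FPM against 0.0475 to 0.120 FPM) and in replicate 2 of the EGF/U46619 batch at 48 h (2.46 FPM against 0.335 to 0.718 FPM). All 4 libraries of that set were at 2.13 to 2.46 FPM. Rarb with EGF+U46619 at 48 h was highest in replicate 2 at 1.02 FPM, against 0.232 to 0.318 FPM.

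When AngII was added to EGF, Rdh10 had differences of opposite sign at 24 h and 48 h. The median difference of EGF+AngII minus EGF in log2(FPM + 0.5) was 0.0852 at 24 h, higher in 6 of 6 mice, and -0.105 at 48 h, lower in 5 of 5 sets. The difference between the time points was not tested, and neither comparison was called.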

How the results depend on the processing

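No direction of a called member was reversed in any alternative, and 336 recomputed counts of called members stayed equal to or within 1.5 times the count given while 48 did not. The 336 include counts that stayed at 0 in comparisons that called 0 members. Of the members' own log2-fold changes, 584 kept their side of the threshold, 79 newly passed it and 47 lost it, each in the same direction. Without a replicate block the counts at 24 h were 1 with U46619, 1 with EGF+U46619 and 2 with EGF+AngII+U46619, and 0 in the comparisons of EGF+U46619 or U46619 with EGF and in all 4 comparisons with U46619 at 48 h. With the culture set as replicate block at 48 h they were 6 (U46619), 5 (EGF+U46619), 5 (EGF+U46619 against EGF) and 4 (U46619 against EGF), and 6, 6, 6 and 4 when the library labelled control of set 4 was also left out. The EGF/U46619 batch alone gave 4, 5, 4 and 2, and with the culture set as replicate block 7, 6, 6 and 4. Batch as a further term gave 0 for U46619 and for U46619 against EGF. Only the compared groups in the fit gave 1 for U46619 against EGF at 24 h, and at 48 h 0 for it and for EGF+U46619 against EGF. DESeq2 alone gave 4, 4 and 3 for U46619, EGF+U46619 against EGF and U46619 against EGF at 48 h. Leaving out 1 replicate gave 2 to 4 for U46619, 0 to 1 for EGF+AngII and 1 to 2 for U46619 against EGF at 24 h, and 0 to 3 for U46619, 1 to 4 for EGF+U46619, 1 to 3 for EGF+U46619 against EGF and 0 to 2 for U46619 against EGF at 48 h. Shares over all genes were given above only for the culture set as the block and, against control, for the EGF/U46619 batch alone. For the other settings they are not given here, so a changed count cannot be read as particular to the members. The cause of these changes was not tested. The p-values set each difference against the spread between these cultures that is left after the mouse term. At 48 h, where culture sets share a mouse number, that spread also holds differences between sets and batches. At this depth Rarb and Crabp2, mostly below 1 FPM, and changes under 1.5-fold are poorly resolved. Changes of 2-fold were also often missed in the simulated counts, with 38 of 67 recovered at 24 h and 30 of 67 at 48 h. A member that was not called may therefore still differ by that much.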
